A study of Saccharomyces cerevisiae with 2 samples.

Results

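The probes described here flank the 16 centromeres of budding yeast, Saccharomyces cerevisiae. They were chosen by position alone, as every non-control probe whose midpoint lay within 10 kb of a given centre on its chromosome. This gave 1161 of the 41775 yeast probes on the array, 57 to 78 for each centromere, of which 842 lay in coding regions, 145 in tandem promoters upstream of a single gene, 91 in divergent promoters between the starts of a gene pair and 83 downstream of genes, between gene ends. The array's annotation placed no flanking probe outside these classes. The series holds 1 group of 2 arrays from strain MDY510, in which histone H3 carries a Myc tag. Cells were arrested in G1 with the mating pheromone alpha factor, without galactose induction. On each array, DNA recovered with an antibody to Myc (IP, Cy5) was hybridised against sonicated whole cell extract (WCE, Cy3) of the same strain. The labels do not say whether replicates 1 and 2 were separate cultures.

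A budding yeast centromere is a short stretch of DNA that binds the kinetochore, the protein complex that attaches a chromosome to the spindle. The nucleosome at its core carries Cse4, a variant of H3, in place of ordinary H3. Nucleosomes on both sides contain ordinary H3, and the chromatin around the centromere is a place where cohesin and condensin gather. Centromeres of this yeast lie in intergenic DNA close to transcribed genes, without the repeated heterochromatin found at the centromeres of many other eukaryotes.

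Ratios are given as log2 of Cy5 over Cy3 after setting the median of each array to 0, so that positive values are those brighter in the channel labelled IP. Mitochondrial DNA, which has no histones, went against these channel labels: the median ratio of 230 mitochondrial probes exceeded the nuclear median by 4.84 ± 0.10 (SD, n = 2 arrays). Each direction below is therefore one between the channels as labelled, and an exchange of the channels would turn each sign. Flanking probes were bright, with a median Cy5 signal of 34329 in replicate 1 and 36914 in replicate 2, over a background of 87 and 85, and a median Cy3 signal of 34343 and 32755, over 68.5 and 64. All of them were well above background in both channels, and 1151 of 1161 were kept. Over the kept flanking probes, which are not independent replicates, the arrays correlated with r = 0.987, and the median SD of a probe between arrays was 0.035. Precision is limited by having 2 arrays, and p-values reflect only how these arrays differ from each other, a spread that may be technical.

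The centres fell where the systematic names of the array's genes place the centromeres. Systematic names of yeast genes carry the arm, L or R, and are numbered outward from the centromere. These names were looked up in the R64 gene table from the gene names on the array. All 842 flanking coding probes had a systematic name with an arm, and 842 lay on the side of the centre that this name gives. Each of the 16 centres lay in an intergenic region between a left-arm and a right-arm gene. These regions spanned 712 to 3448 bp between the flanking coding probes, with a median of 1296 bp. By the array's classes, 8 of them were mostly tandem promoter, 6 mostly downstream of genes and 2 mostly divergent promoter, and 0 of the 16 held a tRNA gene between their flanking genes. The probe nearest to a centre was 7.5 to 155.5 bp away from it, so the array sampled the immediate surroundings of each centromere with 1 or a few 60-nt probes. Coordinates are the array's own, in a genome build that the sources used here do not name, so distances to the centres are approximate.

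Immediately around the centromeres the ratio averaged above that of the rest of the chromosome on every chromosome, by amounts that varied widely. Each chromosome was divided into 2 kb windows counted from its centre, and each window was set against probes of the same class on the rest of its chromosome. The central window, within 1 kb of the centre, exceeded the rest of its chromosome by 0.29 ± 0.02 (SD, n = 2 arrays) averaged over the 16 centromeres, or 1.22-fold, with 0.28 in replicate 1 and 0.30 in replicate 2. All 16 central windows were higher in limma's test with Benjamini-Hochberg adjustment over 5673 windows, the weakest with an adjusted p of 6.98e-05. Small differences pass this test, and 38.3% of all 2 kb windows were higher and 51.1% lower. The 16 central windows lay above the median of all windows, -0.032, and 9 of them lay above the 90th percentile of all windows, 0.27. The lowest of the 16 was not unusual, as 32.0% of all windows were at or above it. The use of 2 kb windows was chosen after the values had been seen. The result depended on the signals used: with normexp, a model-based background correction, applied to the unprocessed signals, which also lack the scanner software's detrending and dye scaling, 16 of 16 windows stayed positive, at a mean of 0.18, and 4 were called, and with loess, an intensity-dependent normalisation of the ratio, added 15 of 16 were positive, at a mean of 0.080 with 0.13 in replicate 1 and 0.026 in replicate 2, and 0 were called (limma; 4 at an unadjusted p under 0.05). Calls were fewer in all windows too: 4.23% of all 2 kb windows were higher and 3.90% lower with normexp, and 2.06% and 0.46% with loess added.

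**Figure D1:**
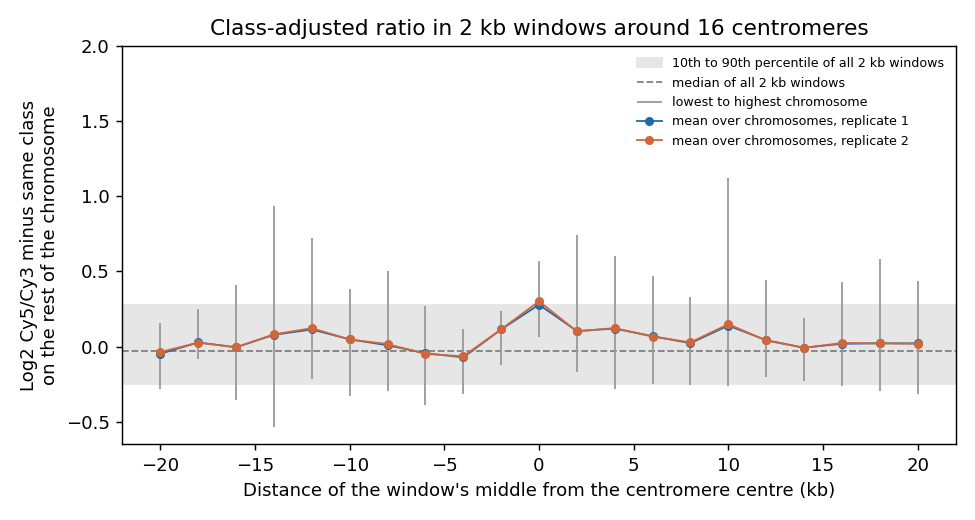
Class-adjusted log2 Cy5/Cy3 in 2 kb windows by distance from the centromere centre in kb. Points are means over chromosomes on each array (14 to 16 chromosomes for each window), grey lines run from the lowest to the highest chromosome, and the band spans the 10th to 90th percentile of all 5673 windows; the central window has the highest mean, 0.28 and 0.30, and its lowest chromosome lies above 0.

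The size of this central difference varied among the centromeres by more than it did between the arrays. Chromosome 14 had the largest, 0.56 in replicate 1 and 0.58 in replicate 2, followed by chromosome 6 with 0.50 and 0.51 and chromosome 2 with 0.45 and 0.47. The central windows of chromosomes 9, 8, 13 and 7 came next, with means of 0.41, 0.38, 0.36 and 0.32. Chromosomes 12 and 16 had 0.29 each, chromosome 11 had 0.23 and chromosome 4 had 0.21. The lowest were those of chromosome 15, with 0.044 and 0.081, and chromosome 10, with 0.12 on both arrays. Chromosomes 5, 1 and 3 lay just above with 0.13, 0.15 and 0.15. The SD over the 16 centromeres was 0.15. Ranked from high to low within its chromosome, the central window was number 6 of 124 on chromosome 6, number 10 of 369 on chromosome 14 and number 177 of 521 on chromosome 15. On none of the 16 chromosomes was it the highest window.

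**Figure D2:**
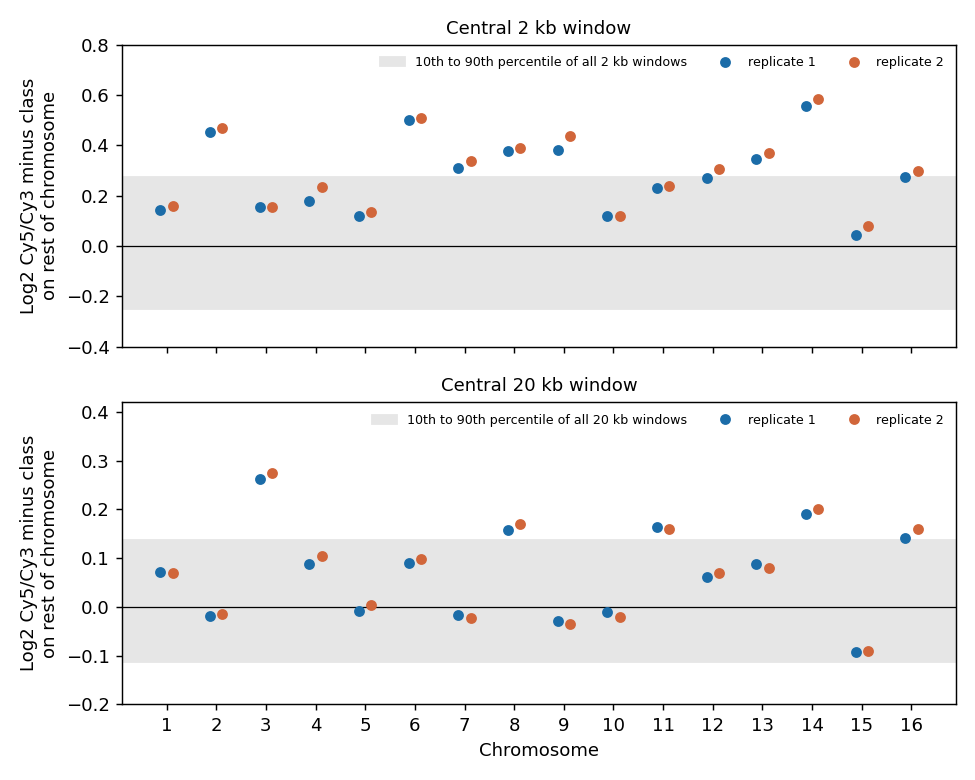
Class-adjusted log2 Cy5/Cy3 of the central 2 kb window (top) and the central 20 kb window (bottom) of each chromosome. Points are single arrays and bands span the 10th to 90th percentile of all windows of that width; all 16 of the 2 kb values are above 0, whereas the 20 kb values lie on both sides of it.

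The probes nearest to the centres are among those that make up the central windows, so their values are not independent of the windows. Their median was 0.65, and they lay above the mean of their class on the rest of the chromosome at 13 of 16 centromeres, by a median of 0.38. Against the array median 13 were higher, 0 lower and 3 did not pass (limma), beside 39.4% higher and 39.4% lower among all kept probes. All but 1 of these nearest probes were intergenic, however, and intergenic classes are called higher more often or as often. Of all nuclear probes, 61.9% were higher in tandem promoters, 73.9% in divergent promoters and 39.5% downstream of genes. The individual spots are given next by the kind of region that holds the centromere.

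Of the 6 centromeres in regions between gene ends, all had a nearest probe brighter in the channel labelled IP. On chromosome 3 this probe, 7.5 bp from the centre and spanning 114378 to 114437, gave 1.13 and 1.30 in replicates 1 and 2, against a mean of -0.053 for downstream probes on the rest of the chromosome. The next probe to its left, 216.5 bp from the centre, gave -0.087 and -0.10, so the high value was not shared by its left neighbour. To its right, probes at 303.5, 501.5 and 718.5 bp had 0.37, 0.41 and 0.18 on the mean of both arrays. The one at 922.5 bp had -0.67. On chromosome 14, between DOM34, a ribosome rescue factor, and CIT1, the mitochondrial citrate synthase, the nearest probe (628855 to 628914) gave 1.19 and 1.31. On chromosome 13, beside YPT7, a Rab GTPase of the vacuole, the nearest probe (267902 to 267960) gave 0.73 and 0.83. Chromosomes 9, 4 and 12 had lower values. Beside YIL001W on chromosome 9 (355460 to 355519) the probe gave 0.45 and 0.59. Beside RMD1 on chromosome 4 (449616 to 449675) it gave 0.30 and 0.42. Beside DNM1, a dynamin-related protein of mitochondrial fission, on chromosome 12 (150650 to 150709) it gave 0.24 and 0.25, which was still higher than the class mean of -0.0048 on the rest of that chromosome.

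Centromeres in regions upstream of a single gene were the most varied. Upstream of ECM15 on chromosome 2 the nearest probe (238067 to 238126) gave 1.34 and 1.39, and the 3 probes to its left gave 0.94 to 1.20 on the mean of both arrays. To its right the next probe, at 193.5 bp, fell to 0.21 and the one after it had -0.23, so this region was high on 1 side of the centre. Upstream of OSH7, an oxysterol-binding protein, on chromosome 8 the nearest probe (105549 to 105608) gave 1.32 and 1.39. On chromosome 6 the nearest probe lay in the coding region of DEG1, a tRNA pseudouridine synthase (148371 to 148430), and gave 0.73 and 0.82. Upstream of CIT3, another citrate synthase, on chromosome 16 (555815 to 555874) it gave 0.49 and 0.57, and upstream of the nuclear exosome exonuclease gene RRP6 on chromosome 15 (326685 to 326744) it gave 0.27 and 0.35. The remaining 3 did not pass the test. They were the probe upstream of AVT1, a vacuolar amino acid transporter, on chromosome 10 (436222 to 436281) with -0.018 and 0.046, the probe upstream of MET14, the adenylylsulfate kinase of sulfate assimilation, on chromosome 11 (440043 to 440102) with 0.0049 and 0.022, and the probe upstream of the sterol synthesis gene ERG26 on chromosome 7 (496733 to 496792) with 0.094 and 0.012. Relative to tandem promoter probes on the rest of their chromosomes these 3 differed by -0.23 (MET14) to -0.28 (AVT1), and the ERG26 probe was saturated in at least 1 channel. The high probes of the AVT1 and MET14 regions lay to the left of the centre, with 1.04 at 315.5 bp from the centre in the AVT1 region and 1.21 at 739.5 bp from the centre in the MET14 region. In the same windows on these 3 chromosomes the average over all probes was nonetheless above the rest of the chromosome, by 0.12, 0.23 and 0.32.

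The centromeres of chromosomes 1 and 5 lie in divergent promoters, a class that is high throughout the genome. Between TFC3, a subunit of the RNA polymerase III factor TFIIIC, and NUP60, a nuclear pore protein, the nearest probe (chromosome 1, 151546 to 151605) gave 0.75 and 0.78, against a class mean of 0.36. Between YEL001C and MNN1, a Golgi mannosyltransferase, the nearest probe (chromosome 5, 151858 to 151917) gave 0.83 and 0.86, against a class mean of 0.51. Averaged over all its probes, however, the region of chromosome 1 differed from its class by -0.0053 ± 0.02 and did not pass the test (limma adjusted p = 0.791), and its rightmost probe, 730.5 bp from the centre, gave -0.036.

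**Figure D3:**
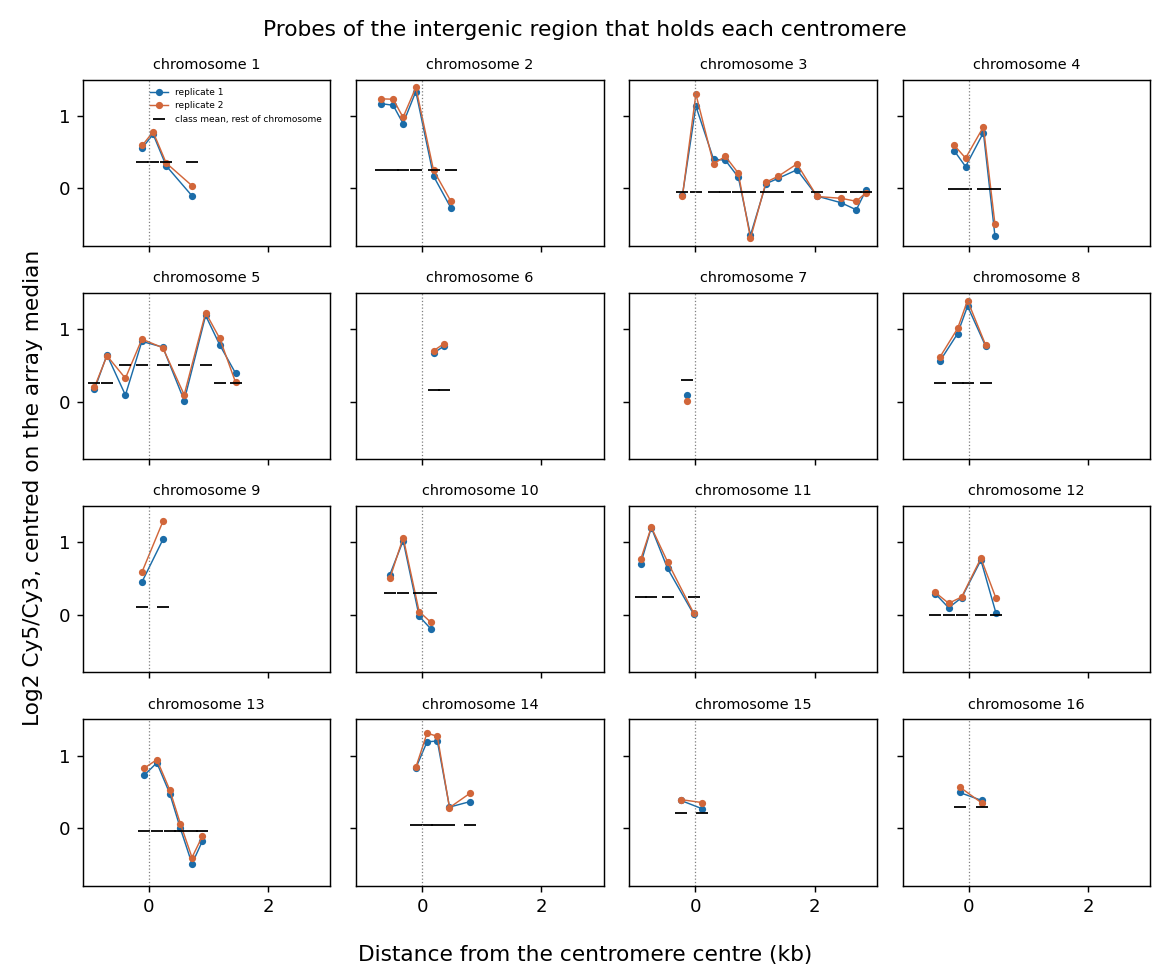
Log2 Cy5/Cy3 of the 73 kept probes in the intergenic regions that hold the 16 centromeres, by distance from the centre in kb. Lines join the probes of 1 array and black dashes give the mean of the same class on the rest of the chromosome; most probes near the dotted centre line lie above their dash, and chromosomes 7, 10 and 11 have a nearest probe below it.

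Taken as whole regions, 14 of the 16 intergenic regions that hold a centromere were higher than their class on the rest of the chromosome and 1, on chromosome 7, was lower (limma adjusted p = 4.86e-04, from a single probe that was saturated). Among all 4536 intergenic regions 32.2% were higher and 56.1% lower. The mean difference was 0.31 ± 0.01 (SD, n = 2 arrays), from -0.25 on chromosome 7 to 0.76 on chromosome 14, and 6 of the 16 lay above the 90th percentile of all regions, 0.41. Intergenic regions with more probes had higher ratios in general. Set only against regions of the same class with a like number of probes across the genome, 12 were called higher and 1 lower. The shares of all regions given above belong to the reference on the same chromosome. Those under the reference by number of probes are not given here, so these counts have no background beside them. The region of chromosome 3 turned from 0.12 to -0.019 and that of chromosome 10 went from 0.064 to 0.017, and neither passed the test there (limma adjusted p = 0.316 and 0.383).

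Over all classes together the difference was largest at the centre and became smaller, though not evenly, with distance. Relative to the same class on the chromosome beyond 10 kb, probes within 0.25 kb of a centre differed by 0.44 ± 0.01 (SD, n = 2 arrays; 32 probes), those from 0.25 to 0.5 kb by 0.28 ± 0.01 (33 probes), those from 0.5 to 1 kb by 0.21 ± 0.02 (56 probes) and those from 1 to 1.5 kb by 0.13 ± 0.002 (58 probes). From 1.5 to 2 kb the difference was 0.021 ± 0.01, but from 2 to 3 kb it was 0.14 ± 0.005 (122 probes) and above 0 at 14 of 16 centromeres. The 2 kb windows next to the central one likewise averaged 0.11 on the left, with 13 of 16 called higher, and 0.10 on the right, with 9 called higher (limma). Between 2 and 10 kb as a whole the difference was 0.044 ± 0.001 over 913 probes, and it was above 0 at 9 of 16 centromeres. Intergenic probes from 9 to 10 kb, however, differed by 0.34 ± 0.01 (31 probes), above 0 at 7 of 14 centromeres. That was as large as the intergenic difference within 1 kb, given next. Both coding and intergenic probes took part within 1 kb: coding probes differed by 0.24 ± 0.02 (56 probes, above 0 at 15 of 15 centromeres that had any) and intergenic ones by 0.33 ± 0.01 (65 probes, above 0 at 15 of 16). The intergenic classes were unlike: downstream probes differed by 0.42 (28 probes), tandem promoter probes by 0.33 (28 probes) and divergent promoter probes by 0.078 (9 probes). Within 0.25 kb these classes differed by 0.71, 0.21 and 0.30. From 0.25 to 0.5 kb they differed by 0.30, 0.47 and -0.17, so tandem promoter probes were not highest at the centre. The first or last probe of a gene carries a higher ratio in general, and against all coding probes these outermost probes differed by 0.25 within 1 kb and by 0.14 from 10 to 20 kb. Inner coding probes differed by 0.23 within 1 kb and by -0.031 from 10 to 20 kb. These distance bins are described without a test.

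Over all classes together both channels were dimmer near the centres, and Cy3 more so than Cy5. Within 0.25 kb the Cy3 signal lay 0.87 ± 0.02 and the Cy5 signal 0.43 ± 0.003 below the same class on the rest of the chromosome (log2, SD, n = 2 arrays). From 0.5 to 1 kb the Cy3 signal was still lower, at -0.19 ± 0.004, whereas the Cy5 signal was at 0.027 ± 0.01. In the central 2 kb windows Cy3 was below the rest of the chromosome at 14 of 16 centromeres and Cy5 at 13 of 16, and 8 of the 16 lay under the 10th percentile of all windows in Cy3 and 4 in Cy5. The higher ratio near the centres thus went with a dimmer channel labelled WCE. The channel labelled IP was dimmer as well over all classes together, but not over downstream probes. Their Cy5 signal was at -0.010 ± 0.05 within 0.25 kb and at 0.14 ± 0.02 within 1 kb, with Cy3 at -0.72 and -0.28. Probes dim in Cy3 had high ratios elsewhere too: on the rest of the nuclear chromosomes the mean ratio of intergenic probes ran from 0.42 in the dimmest of 5 equal bins of Cy3 signal to 0.029 in the brightest, while that of coding probes was -0.077 and -0.065. Cy3 is the denominator of the ratio, so the bins and the ratio are not independent measures. Of the 121 probes within 1 kb, 58 belonged to that dimmest bin, where the intergenic ones had a mean of 0.60 and the coding ones 0.17. After a cubic fit on probe brightness was subtracted, an alternative chosen after seeing the data, the central windows differed by 0.30 and 16 of 16 were called. That fit took the nuclear probes of all classes together. It therefore cannot be taken to have removed a dependence on brightness seen mainly in intergenic probes, and a fit within each class was not made. Only 4.96% of the probes within 1 kb were saturated in either channel on either array, against 11.1% of nuclear probes outside the flanking set.

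**Figure D4:**
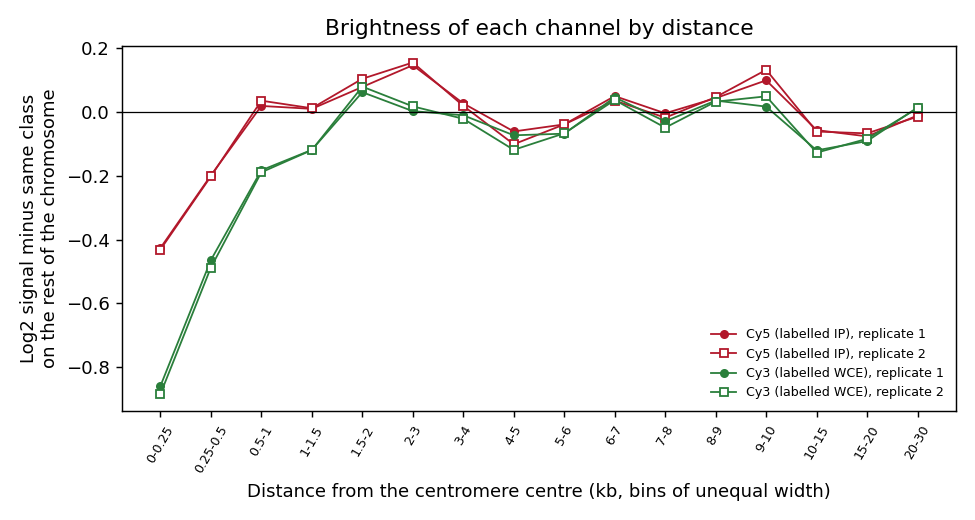
Log2 signal of each channel relative to the same class on the rest of the chromosome, by distance from the centre in kb. Lines are single arrays. Within 0.25 kb Cy3 lies at -0.87 and Cy5 at -0.43 on the mean of both arrays. The Cy3 lines lie below the Cy5 lines in each bin up to 6 kb, by most in the bin nearest to the centre.

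Over the full 10 kb on either side the centromere surroundings differed little from the rest of their chromosomes. Coding probes differed by 0.065 ± 0.002 (SD, n = 2 arrays), and 12 of 16 chromosomes were above 0. Chromosome 15 was lowest with -0.064 and chromosome 3 highest with 0.22. Tandem promoter probes differed by 0.080 ± 0.001, above 0 on 9 of 16, and downstream probes by 0.12 ± 0.02, above 0 on 12 of 16. Divergent promoter probes differed by -0.043 ± 0.001 and were split 8 and 8, a sign that turned to 0.0015 when probes of all chromosomes were pooled. The SD over chromosomes was 0.079 for coding probes and between 0.22 and 0.31 for the other classes, larger than each of these differences. With 2 arrays no exact test over arrays could go below 0.5, so these class differences carry no p. Within 5 kb the coding difference was 0.10 and the tandem promoter difference 0.14.

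**Figure D5:**
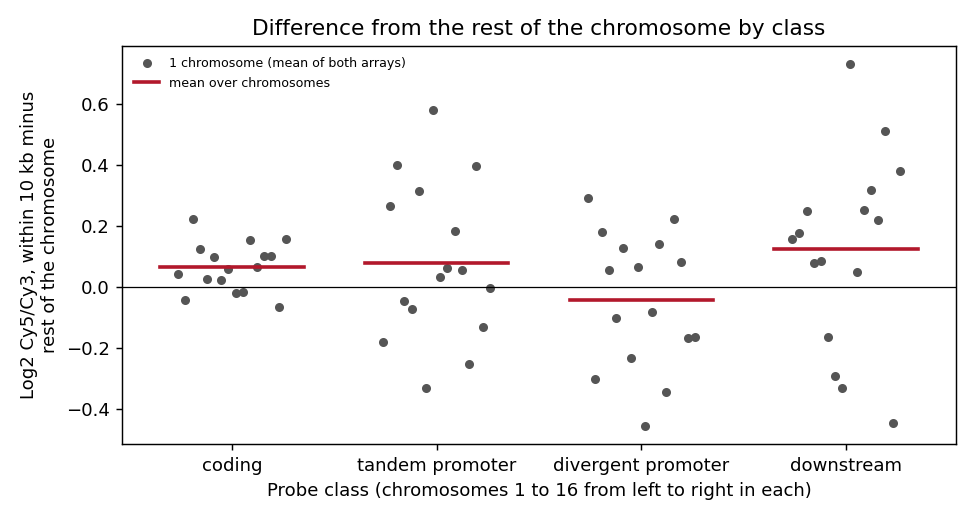
Mean log2 Cy5/Cy3 of probes within 10 kb of the centre minus that of the same class on the rest of the chromosome. Each point is 1 chromosome averaged over both arrays and red lines are means over chromosomes, 0.065, 0.080, -0.043 and 0.12 from left to right; the points of each class lie on both sides of 0.

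By 20 kb windows, 10 of the 16 central windows were higher than the rest of their chromosome, 5 were lower and 1 did not pass, beside 41.4% higher and 50.7% lower among all 594 windows (limma). Their mean was 0.073 ± 0.003 (SD, n = 2 arrays), and 5 of them lay above the 90th percentile of all windows, 0.14. The window around the centromere of chromosome 3 had 0.26 in replicate 1 and 0.27 in replicate 2, the highest of the 16 windows of that chromosome. Chromosome 14 followed with 0.19 and 0.20, chromosome 8 with 0.16 and 0.17, chromosome 11 with 0.16 on both and chromosome 16 with 0.14 and 0.16. Chromosome 15 was lowest with -0.092 on both arrays, number 49 of 54 on its chromosome, although its central 2 kb were higher. The other windows called lower, on chromosomes 2, 7, 9 and 10, differed by -0.016 to -0.032, and chromosome 5 by -0.0023. Adjacent 20 kb windows averaged 0.0044 on the left and 0.0083 on the right. With normexp 4 windows were higher and 0 lower, beside 6.40% higher and 5.05% lower among all windows, and with loess added 0 of the 16 and 0% of all windows passed (limma; 5 of the 16 were higher at an unadjusted p under 0.05).

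Tested against the array median, 331 of 833 kept coding probes were higher and 311 lower, where 30.7% of all nuclear coding probes were higher and 45.4% lower (limma). The share of flanking coding probes that were higher was 39.7%. Of 144 tandem promoter probes 105 were higher and 25 lower, beside 61.9% and 23.4% of that class. Of 83 downstream probes 46 were higher and 30 lower, beside 39.5% and 43% of that class. Of 91 divergent promoter probes 71 were higher and 8 lower, beside 73.9% and 14.5%, so the share of this class called higher was near that of the genome. With normexp 4 flanking probes of all classes were higher and 3 lower, and at an unadjusted p under 0.05 29 were higher and 74 lower, against 553 and 374 called without it (limma). With loess added 0 passed in either direction (limma; 0 at an unadjusted p under 0.05).

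The mean ratio over all classes showed no step at the threshold of 10 kb. The last probe inside lay 9995.5 bp from its centre and the first outside 10001.5 bp. The mean ratio was 0.12 over 109 probes from 9 to 10 kb and 0.14 over 103 probes from 10 to 11 kb. These means are not adjusted for class. Relative to the same class on the chromosome beyond 10 kb, probes from 9 to 10 kb differed by 0.083 and those from 10 to 15 kb by 0.065. In the same bins intergenic probes differed by 0.34 and 0.10, and coding probes by -0.019 and 0.047.

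Coding regions were summarised for 153 genes whose coding probes centred within 10 kb and numbered at least 2. Of these, 79 were higher than the array median, 54 lower and 20 did not pass, beside 34.9% higher and 49.1% lower among all 4996 coding regions (limma). Their median was 0.055, against -0.038 over all coding regions. None of the 153 was called with normexp, where 7 were higher and 12 lower by the unadjusted p of limma at 0.05. None was called with loess added either, where the unadjusted counts were 17 and 3. The genes directly beside the centromeres, 1 on each side, are 32, and 29 of them had at least 2 kept coding probes. Among these 19 were higher, 5 lower and 5 did not pass, with a median of 0.097.

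Several of these immediate neighbours had high coding ratios. On chromosome 6 both neighbours were higher, DEG1 with 0.38 and 0.41 in replicates 1 and 2 and LOC1, a nuclear protein of ribosome assembly and mRNA localisation, with 0.39 and 0.42. On chromosome 5 YEL001C gave 0.43 and 0.45 over 2 probes. On chromosome 13 YPT7 gave 0.37 and 0.41 over 2 probes. RPL14B, a ribosomal protein gene beside the centromere of chromosome 8, gave 0.29 and 0.34. CIT1 on chromosome 14 gave 0.27 and 0.29, and both neighbours on chromosome 16, the histone acetyltransferase gene HAT1 and CIT3, had means of 0.24 and 0.25. PRE3, a proteasome subunit on chromosome 10, had 0.19, and on chromosome 1 TFC3 had 0.097 and NUP60 0.069.

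Of the 5 immediate neighbours that were lower, 4 lay opposite a higher one. RRP6 on chromosome 15 gave -0.33 and -0.29, while PHO80, a cyclin of phosphate signalling across the centromere, gave 0.24 and 0.30. MNN1 had -0.13 ± 0.03 (SD, n = 2 arrays), opposite YEL001C. The neutral trehalase gene NTH1 had -0.12 ± 0.05 on chromosome 4, VPS1, a dynamin-like protein of vacuolar sorting, -0.12 ± 0.04 on chromosome 11, and DNM1 -0.12 ± 0.04 on chromosome 12, where the gene opposite did not pass. The coding probe nearest to the centre on each side, 99.5 to 3020.5 bp away and in all 32 cases the outermost probe of its gene, was above 0 at 25 of 32 genes with a mean of 0.17. Outermost coding probes outside the flanking set were above 0 in 58.6% of cases, with a mean of 0.057.

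Farther out the extremes were single genes on both sides of 0. The highest coding region within 10 kb was FUN34, on chromosome 14 from 633165 to 633699, with 0.60 and 0.69 over 2 probes. CWH36 on chromosome 3 had 0.54 and 0.55, and YLR003C on chromosome 12 had 0.49 and 0.51. The lowest was LAG1, a ceramide synthase subunit on chromosome 8, with -0.56 and -0.57 over 3 probes. TFG2, a subunit of the general transcription factor TFIIF on chromosome 7, had -0.40 and -0.38. CYR1, the adenylate cyclase on chromosome 10, and SIN3, of a histone deacetylase complex on chromosome 15, each had -0.31 on the mean of both arrays, over 22 and 17 probes.

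Of the promoter regions centred within 10 kb, 88 were higher than the array median, 11 lower and 15 did not pass, beside 68.4% higher and 18% lower among all 3922 promoter regions (limma). The highest was that of GPA1, which encodes the G protein alpha subunit of the pheromone receptor, with 1.63 and 1.67 over 3 probes near the outer edge on chromosome 8. The divergent promoter of NTH1 and YRB1, a Ran-binding protein, had 1.25 and 1.20 from 1 probe, and that of YMR001C-A and YMR002W had 1.11 and 1.16 over 2 probes. The lowest was YML002W on chromosome 13 with -0.78 and -0.72 from 1 probe. YGR004W on chromosome 7 and the histone acetyltransferase gene RTT109 on chromosome 12 had -0.31 and -0.26, each from 1 probe.

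The highest single flanking probes also lay away from the centres. Those of the CIT2 promoter, a peroxisomal citrate synthase gene on chromosome 3, gave 1.91 and 1.84 on the mean of both arrays at 9102.5 and 9334 bp. The SSA1 and EFB1 divergent promoter on chromosome 1 gave 1.90 at 9734.5 bp, the GPA1 promoter 1.87 at 9825.5 bp and the CIT1 promoter 1.82 at 2828.5 bp. Of these 5 probes 3 were saturated in at least 1 channel, 1 each in the CIT2, GPA1 and CIT1 promoters, and ratios of saturated spots are compressed. The lowest were 2 coding probes of UTP20, a factor of small ribosomal subunit assembly on chromosome 2, with -1.30 and -0.96, and a probe downstream of the RNA helicase gene SPB4 on chromosome 6 with -1.11. A coding probe of LAG1 had -1.08 and one of CYR1 had -0.90.

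Intergenic regions with a tRNA gene, found by gene order, held 35 kept flanking probes in 7 regions at 6 centromeres. Their mean ratio was 0.58, which was 0.46 above their class on the rest of the chromosome. None of these regions held a centromere, and without them the central 2 kb windows differed from the rest of the chromosome by 0.31.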

How the data were processed

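Spots were scanned and quantified as intensity values with Agilent Feature Extraction 9.1.3.1 (design 014810), whose processed signals are corrected for background and spatial trend and scaled linearly between dyes, per the file headers. The log2 table that the authors deposited equals log2 of processed Cy5 over Cy3 to within 5.00e-06 and is not centred. Since Cy5 held the IP on both arrays, dye and IP cannot be told apart, and both arrays lay on 1 slide. Linear amplification from up to 75 ng came before labelling, per the labels' protocols, and may favour some sequences.

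Log2 ratios were centred on each array's median. Probes marked non-uniform or a population outlier, or with Cy3 not well above background, on either array were left out, which kept 40890 probes. Probes, coding regions, promoter regions and windows were tested with limma 3.58.1 (lmFit and eBayes, R 4.3.3) with Benjamini-Hochberg adjustment over all rows and a threshold of 0.05. Windows of 20 kb needed 20 kept probes and windows of 2 kb needed 4, and coding regions needed 2. Windows and intergenic regions were scored as the mean difference of their probes from the same class on the same chromosome outside that window or region. The fits were tested on simulated data. Gene names came from the array. The R64 gene table served for arms and gene order, and matched 5454 of 5474 coding gene names. Named genes are the neighbours of each centre, the 5 highest and 5 lowest coding regions, the 3 highest and 3 lowest promoters and the 5 highest and 5 lowest probes, of which a part is printed. Members, lists and tests were chosen with earlier results of these data known. Alternatives were normexp background correction (offset 50) of the unprocessed mean signals without and with loess, the deposited table, other probe filters, distances, references and averages, each array alone, and a brightness fit. Probe sequences and GC content were not analysed here.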

Additional observations from a re-analysis of the deposited data

How the results depend on the processing

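The calls changed most with normexp on the unprocessed signals, which replaced the background correction, the detrending and the dye scaling of the processed signals together. With normexp, 4 flanking probes were higher and 3 lower, 4 central 20 kb windows, 4 central 2 kb windows, 0 coding regions and 0 centromere-holding regions were higher, and 0 windows, coding regions or regions were lower (limma; at an unadjusted p under 0.05, 29 and 74 probes, 6 and 0 of the 20 kb windows, 10 and 0 of the 2 kb windows, 7 and 12 coding regions and 1 and 1 regions were higher and lower). With loess added, 0 were called in either direction in any of these (unadjusted, 0 and 0 probes, 5 and 0 of the 20 kb windows, 4 and 0 of the 2 kb windows, 17 and 3 coding regions, 1 and 0 regions). None of these steps was changed alone, and the cause was not tested. Among all windows, 6.40% of those of 20 kb and 4.23% of those of 2 kb were higher with normexp, and 0% and 2.06% with loess added. The differences for coding, tandem promoter, divergent promoter and downstream probes and within 1 kb were 0.045, 0.036, 0.0038, 0.024 and 0.18 with normexp and 0.029, 0.015, -0.0024, 0.011 and 0.080 with loess added, against 0.065, 0.080, -0.043, 0.12 and 0.29. With 60-nt probes only they were 0.083, 0.090, -0.032, 0.16 and 0.32, with 1 window of 20 kb lower, and without saturated probes 0.061, 0.058, -0.057, 0.17 and 0.31, with 0 centromere-holding regions lower because the only one was saturated. Without regions that hold a tRNA gene the tandem, divergent and 1 kb values were 0.070, -0.035 and 0.31. Within 5 kb the coding, tandem and divergent differences were 0.10, 0.14 and -0.033, and within 20 kb 0.045, 0.076 and 0.047. Pooled over chromosomes the 4 class differences were 0.060, 0.13, 0.0015 and 0.16, and as medians 0.069, 0.11, 0.0014 and 0.14. Without chromosome ends the tandem and divergent differences were 0.052 and -0.056, and the tandem difference was 0.085 with no probe filter and 0.083 after the brightness fit. The sign of the divergent promoter difference was thus not stable.

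Among single values, 28 turned sign, 174 lost their call, 2 gained one and 720 kept both over all alternatives, and the deposited table turned none. These counts pool unlike alternatives. With normexp 12 turned sign, 78 lost their call and 13 kept both, and with loess added the counts were 4, 94 and 5. The deposited table, which holds the same ratios uncentred, and the setting without a probe filter each kept both for 103. Under normexp the 20 kb windows of chromosomes 2, 5, 9 and 15 became 0.024, 0.022, 0.00032 and 0.024, the region of chromosome 1 0.016, the coding regions of RRP6, TFC3 and DNM1 0.048, -0.059 and 0.012, the nearest probes of chromosomes 7 and 11 -0.42 and -0.099, and the lowest UTP20 probe and the SPB4 probe 0.042 and 0.26. With loess added, the central 2 kb window of chromosome 10 became -0.0075 and the regions of chromosomes 10, 15 and 16 became -0.077, -0.037 and -0.0055. With 60-nt probes only, the 20 kb windows of chromosomes 2, 5, 7, 9 and 10 became 0.0044, 0.026, 0.047, 0.0030 and 0.0013 and the region of chromosome 1 0.086. The 20 kb window of chromosome 5 became 0.010 without saturated probes and 0.0032 without tRNA regions. After the brightness fit the region of chromosome 1 became 0.0054 and the nearest probe of chromosome 11 -0.031. Set against regions with a like number of probes, 12 regions were higher (the share of all regions is not given here), and those of chromosomes 1 and 3 became 0.0083 and -0.019. The 2 kb windows, the centromere-holding regions, the split of coding probes, the reference by number of probes and the brightness fit were chosen after seeing the data. No paired analysis was possible because there is only 1 group. The correction for GC content was not run. Signal was far above local background, and the number of arrays, 2, limits these values.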
